A study of Mus musculus with 9 samples.

Results

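Genes of the amygdala that differed between avoiding (AV) and approaching (AP) mice are described here, and the balancing (BA) mice that both groups were set against served as the link between them. AV and AP mice were deposited in separate tables, BA vs AV with 9872 genes and BA vs AP with 11820 genes, and the same 3 BA mice stand in both. The members are the 9417 genes listed in both tables, of 12275 genes listed in either, matched by their Ensembl identifier without its version. In each table log2(value + 1) of every mouse was set relative to the mean of the 3 BA mice of that table, and AV replicates 1 and 3 were then compared with AP replicates 1, 2 and 3. A change that only the BA mice carry enters both sides and cannot make AV and AP mice differ, as far as both tables hold it alike. The BA means differ between the tables, as given below, and such a gap enters the comparison. All mice were of the transgenic line B6.Cg-Tg(Thy1-YFP)HJrs/J, in which the Thy1 promoter drives yellow fluorescent protein in pyramidal neurons of the amygdala, and to a lesser extent in other neurons of the brain. The phenotype is the response that the mice showed spontaneously, 1 month before the tissue was taken, when a palatable food lay in a bright arm of a maze and a standard food in a dark arm. AV mice leaned to avoiding, AP mice to approaching, and BA mice balanced the drives. Each library held the sorted fluorescent cells of the amygdala of 1 mouse, prepared with a stranded kit for very small amounts of RNA, and the sex and age of the mice are not given in the sources used here. The authors removed AV replicate 2 as an outlier and it was not used here.

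As background, pyramidal neurons are the excitatory projection neurons of the amygdala, a region that weighs threat and reward. They receive glutamate at dendritic spines, where scaffold proteins of the postsynaptic density hold receptors and channels in place, and they release endocannabinoids that act back on the presynaptic terminal. Oligodendrocytes wrap axons in myelin, and their RNA is dominated by a small set of myelin genes, Mbp among them.

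The values are a normalized signal per gene and mouse and not read counts. In the BA vs AP table low values lie on steps of 1 read, which put 3812180 to 6719780 reads behind a mouse, and a gene with 3 reads stands at a value of up to 5.68. For the other table the number of reads behind the values was not estimated. The paper gives the sequencing depth over all libraries and not for each mouse. The tables were normalized separately, so each value below is given beside those of the BA mice of its own table. The BA mice were lower in the BA vs AV table by a median of 0.21, 0.27 and 0.22 on the log2 scale (BA replicates 1, 2 and 3), and their values correlated across genes between the tables with r between 0.996 and 0.997, which describes 1 library normalized 2 times and not replicates. Any step that treated AV and AP mice differently when the tables were made cannot be told apart from the phenotype.

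The label of the cells, pyramidal neurons, was checked against marker genes. Of 24 markers of pyramidal neurons 8 were listed in both tables, among them Camk2a, the alpha subunit of calcium/calmodulin-dependent kinase II. Slc17a7, the vesicular glutamate transporter, Thy1, Tbr1 and 12 further markers were listed in neither table. Of 20 markers of oligodendrocytes 19 were listed in both tables, and of 20 markers of astrocytes 18. Mbp, the myelin basic protein, ranked between 2 and 4 by value among all genes in every BA and every AP mouse, and 7 and 5 in AV replicates 1 and 3. Camk2a was at 1656 and 2965 in AV mice beside 55.3 to 77.3 in the BA mice of that table, and at 77.0, 843 and 1401 in AP mice beside 64.9 to 98.3, a log2 difference of 2.49 ± 1.16 (SE). It ranked between 6506 and 8365 among the genes of a BA mouse, 7837 in AP replicate 1, 1135 and 539 in the other AP mice, and 228 and 99 in the AV mice. Myelin genes were thus high in all libraries, against the label, and the kinase of excitatory neurons was low in the BA mice and in AP replicate 1.

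Between AV and AP mice 303 of 9417 genes, or 3.22%, had a limma p under 0.05 after Benjamini-Hochberg adjustment and are referred to as called, and differences are given ± their standard error (SE). Of these 102 were higher in AV mice (1.08%) and 201 were lower (2.13%). The median difference of the called genes, AV minus AP on the log2 scale, was 1.69 for those higher and -1.93 for those lower, beside a median of 0.0018 over all genes tested. In 19 of the lower genes both AV mice had values of at most 5.68, the value of 3 reads in the other table, and with these set to 5.68 the median of the lower genes was -1.88. In 9 of the 303 called genes the gap between the BA means of the 2 tables lay over 0.5 from its median, beside 1.2% of all genes. Every called gene had AV and AP mice that did not overlap, a pattern that 47.8% of all genes show. All 102 higher genes had both AV mice above all BA mice, while the AP mice overlapped the BA mice in 87 of them, and all 201 lower genes had both AV mice below all BA mice, while the AP mice overlapped the BA mice in 176. Over all genes both AV mice were above all BA mice in 27% and below them in 32.3%, and the AP mice overlapped the BA mice in 87.9%. At an unadjusted p under 0.05 limma gave 2595 genes (27.6%), 1136 higher (12.1%) and 1459 lower (15.5%).

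The adjusted p of the called genes lay between 0.0453 and the threshold of 0.05, and 0 genes were called without AV replicate 1 or without any single AP mouse, with 1832 to 2360 genes at an unadjusted p under 0.05 in these fits. All 303 genes kept their direction in each of the 8 fits without 1 mouse. Their selection from the same mice, with groups that did not overlap, largely fixed this in advance. The count also turned on other settings. It was 0 with each mouse centred on its median over all genes (2568 genes at an unadjusted p under 0.05 in limma), 2 with a limma prior that followed mean expression and was robust, and 0 when the lowest value of each mouse was subtracted, a setting chosen after seeing the data (2547 genes at an unadjusted p under 0.05). Without the BA mice as a link, 869 genes passed, of which 117 were up and 752 were down in AV mice, and 294 of the 303 were among them.

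**Figure D1:**
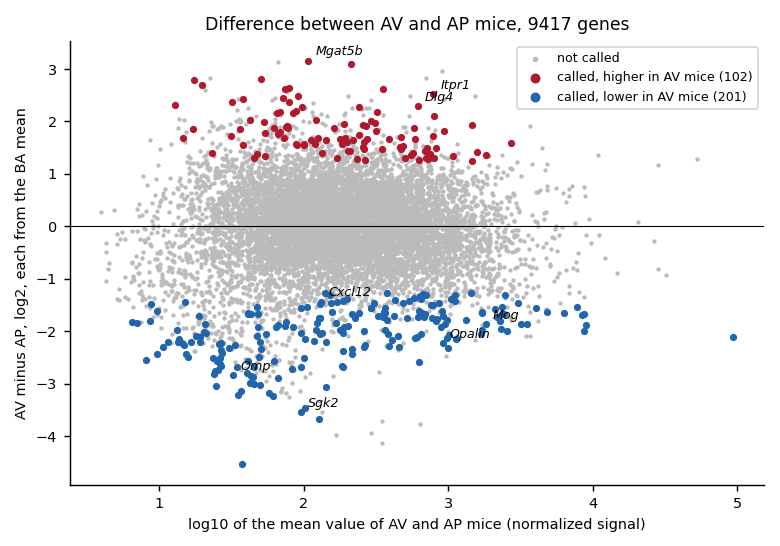
Each point is 1 of 9417 genes, with the log10 of its mean value in AV and AP mice on the x axis and the log2 difference AV minus AP, each relative to the BA mice of its table, on the y axis. Red points are the 102 genes called higher in AV mice and blue points the 201 called lower.

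Of the 49 gene lists, that of oligodendrocyte markers, largely myelin genes, had the most called members. Of 20 oligodendrocyte markers 19 were listed in both tables, and all 19 were lower in AV than in AP mice. Of these 10 were called, beside 2.13% of all genes called lower, among them Opalin, Aspa, Tspan2, Myrf, Mog, Ermn, Mal, Cldn11 and Enpp2. All 19 had an unadjusted p under 0.05 and AV mice entirely below AP mice, beside 15.5% and 25.1% of all genes. The median difference of the 19 was -1.68, beside 0.0018 over all genes. Their summed level, as a ratio to the mean of the BA mice, was 0.25 and 0.39 in AV replicates 1 and 3 and between 0.92 and 1.08 in AP mice, and the BA mice lay between 0.91 and 1.15. Of the signal summed over the genes listed in both tables, the 19 genes held 2.13% and 3.18% in the AV mice and between 6.84% and 7.96% in the AP mice. The AP mice thus stood among the BA mice, and only the AV mice departed from them. In a bulk library fewer oligodendrocytes or fragments of them and less RNA of each cannot be told apart.

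Opalin (chr19:41061710-41077113 in GRCm38, - strand), a glycoprotein of the myelin sheath, had values of 218 and 348 in AV mice (BA mice 1332 to 1726) and of 1901, 1415 and 1325 in AP mice (BA mice 1587 to 1977), which differed by -2.23 ± 0.32. Mog, the myelin oligodendrocyte glycoprotein of the outer sheath, reached 521 and 898 in AV mice against 2414 to 3016 in BA mice, and 3012, 3119 and 2684 in AP mice against 2878 to 3441, with a difference of -1.87 ± 0.31. In Opalin and Mog both AV mice were lower than every other mouse of either table, and the AP mice overlapped the BA mice. Myrf, the transcription factor that switches on myelin genes, was at 593 and 1269 in AV mice beside 3492 to 4927 in the BA mice of that table, and at 4908, 4322 and 3367 in AP mice beside 4323 to 5952, a log2 difference of -1.99 ± 0.39 (SE). Aspa, the enzyme that splits N-acetylaspartate, had values of 255 and 505 in AV mice (BA mice 1957 to 2367) and of 2392, 1866 and 1411 in AP mice (BA mice 2203 to 2846), which differed by -2.14 ± 0.39. Tspan2, a tetraspanin of myelin, reached 2251 and 4076 in AV mice against 9521 to 14083 in BA mice, and 13948, 14784 and 13608 in AP mice against 10824 to 16708, with a difference of -1.99 ± 0.32. AV replicate 1 was lower than AV replicate 3 in each of these 5 genes. Ermn, Mal, Cldn11 and Enpp2, which serve the myelin cytoskeleton, membrane sorting, tight junctions and lysophospholipid signalling, differed by -1.86, -1.68, -1.66 and -1.54.

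Among the markers that were not called, Sox10, the transcription factor that defines the lineage, was at 222 and 556 in AV mice beside 1279 to 1716 in the BA mice of that table, and at 1779, 1716 and 1179 in AP mice beside 1545 to 1981, a log2 difference of -1.86 ± 0.44 (SE). Mbp, the basic protein that compacts myelin, had values of 17761 and 21498 in AV mice (BA mice 23944 to 36589.8) and of 35652, 48379 and 50253 in AP mice (BA mice 27714 to 45063), which differed by -0.94 ± 0.28. The adjusted p with limma was 0.0637 for Sox10 and 0.0955 for Mbp. In Mbp AV replicates 1 and 3 were the lowest of all mice, and AP replicates 2 and 3 stood above all BA mice in it. Further genes known from oligodendrocytes were among the 201 lower genes and were picked out after their values were seen. Fa2h, which hydroxylates the fatty acids of myelin sphingolipids, differed by -1.98 ± 0.29 (SE), Erbb3, a neuregulin receptor, by -1.75 ± 0.33, and Enpp6, a choline phosphodiesterase, by -2.59 ± 0.47. The listed markers of oligodendrocyte precursors did not share this direction. Of 8 precursor markers 4 were listed in both tables, and all 4 were higher in AV mice with a median difference of 1.57. Of these 1 was called, beside 1.08% of all genes called higher, and 4 markers are too few to speak for the cells. Pdgfra, the receptor that marks these cells, reached 744 and 1685 in AV mice against 225 to 388 in BA mice, and 291, 594 and 302 in AP mice against 263 to 483, with a difference of 1.84 ± 0.48. Its adjusted p with limma was 0.0746.

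**Figure D2:**
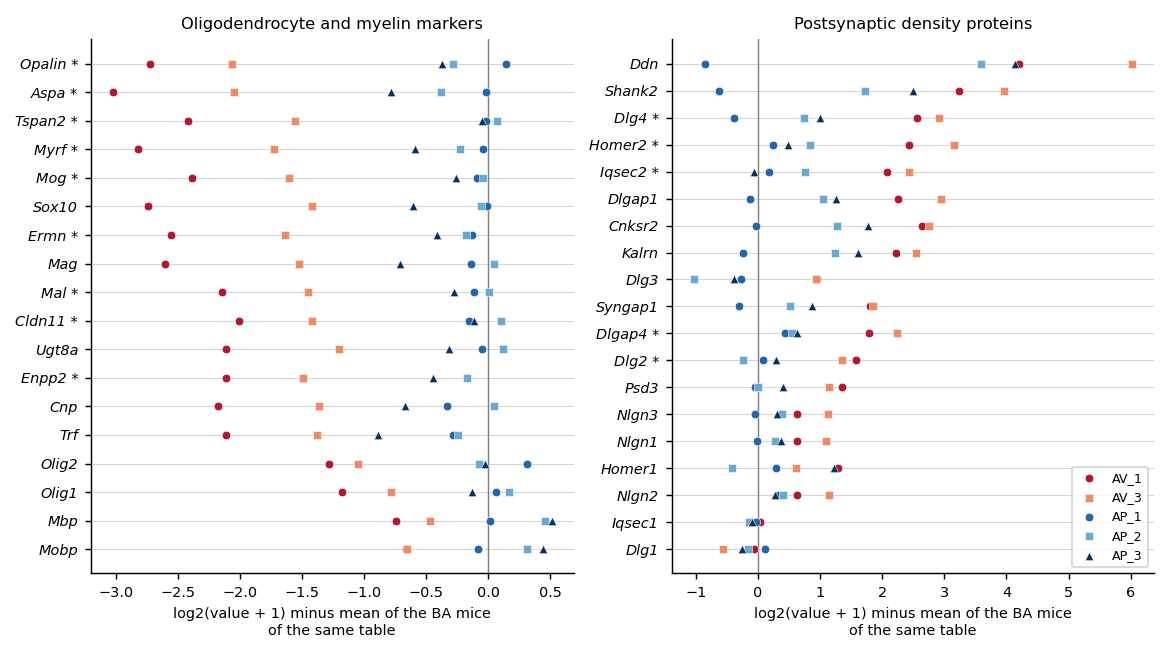
Log2(value + 1) of each AV and AP mouse relative to the mean of the BA mice of its table (0) is plotted for 18 of the 19 oligodendrocyte markers (left) and the 19 postsynaptic density genes (right), and an asterisk marks a called gene. The AV mice lie below all AP mice in every row on the left and above all AP mice in 16 of 19 rows on the right.

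The promoters of a pair of myelin genes and of a pair of postsynaptic genes are shown because these groups carried the opposite directions. They are RefSeq sequences of GRCm38.p6, 250 bases before to 50 bases after the start, read 5′ to 3′ on the strand of the gene. Capitals mark ACAAAG, the core letters that Sox proteins bind, and CTGGNAC, on either strand. The latter, in which N is any base, is a looser form of the letters known for Myrf.
Opalin, chr19:41077064-41077363, - strand: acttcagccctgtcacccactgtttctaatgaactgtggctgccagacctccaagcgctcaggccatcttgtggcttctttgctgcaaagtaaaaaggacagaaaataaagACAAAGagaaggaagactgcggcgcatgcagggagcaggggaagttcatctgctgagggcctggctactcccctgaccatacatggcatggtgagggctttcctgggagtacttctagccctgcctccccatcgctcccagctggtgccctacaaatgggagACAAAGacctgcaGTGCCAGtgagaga
Mog, chr17:37023349-37023648, - strand: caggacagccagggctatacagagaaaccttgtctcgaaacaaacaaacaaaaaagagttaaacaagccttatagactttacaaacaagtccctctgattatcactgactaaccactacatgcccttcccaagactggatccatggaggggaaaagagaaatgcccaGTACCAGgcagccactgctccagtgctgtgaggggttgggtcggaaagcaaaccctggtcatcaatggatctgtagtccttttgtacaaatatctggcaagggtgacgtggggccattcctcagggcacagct
Dlg4, chr11:70016953-70017252, + strand: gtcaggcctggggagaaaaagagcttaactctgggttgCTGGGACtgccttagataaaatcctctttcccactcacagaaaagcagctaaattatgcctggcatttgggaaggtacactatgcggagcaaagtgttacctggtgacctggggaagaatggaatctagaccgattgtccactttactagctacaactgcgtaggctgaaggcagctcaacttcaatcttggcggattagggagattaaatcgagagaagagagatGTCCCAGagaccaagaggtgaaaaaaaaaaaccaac
Homer2, chr7:81706876-81707175, - strand: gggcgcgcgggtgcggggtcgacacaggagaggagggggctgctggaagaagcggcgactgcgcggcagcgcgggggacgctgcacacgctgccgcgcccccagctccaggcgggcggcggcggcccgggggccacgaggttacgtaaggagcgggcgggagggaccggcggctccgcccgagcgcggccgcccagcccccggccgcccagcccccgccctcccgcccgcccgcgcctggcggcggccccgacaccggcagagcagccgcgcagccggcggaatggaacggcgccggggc
The letters CTGGNAC stand in the windows of Opalin, Mog and Dlg4 and not in that of Homer2, and ACAAAG stands only in that of Opalin, at 2 places. The open base N is C in Opalin, T in Mog and G in Dlg4, so the matches are not all the same letters. Promoters were found by symbol for 149 of the 201 lower genes, 80 of the 102 higher genes and 7424 of all genes tested. CTGGNAC was held by 23.5% of these for the lower genes, 18.8% for the higher genes, 17.3% for all genes tested and 19.2% of all 27025 promoters of the reference. ACAAAG was held by 14.1%, 11.2%, 12.8% and 18.7%. Of the 7 called oligodendrocyte markers with a promoter, 2 held CTGGNAC and 1 held ACAAAG. Of the 5 called postsynaptic genes, 3 held CTGGNAC and 0 held ACAAAG. The printed windows therefore do not stand for their groups. The median GC content was 58.7% for the lower genes, 67.3% for the higher genes and 61.7% for all genes tested. A match of letters describes the window and is no evidence of binding.

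Postsynaptic genes stood on the other side. Of 27 genes of the postsynaptic density 19 were listed in both tables, and 18 of these were higher in AV than in AP mice. Called were 5, all higher (Dlg4, Homer2, Iqsec2, Dlgap4 and Dlg2), beside 1.08% of all genes called higher. An unadjusted p under 0.05 was reached by 12, all higher, and 16 had AV mice entirely above AP mice, beside 12.1% and 22.7% of all genes. The median difference was 1.47. Their summed level relative to the BA mice was 2.11 and 2.32 in AV mice and 1.01, 1.10 and 1.30 in AP replicates 1, 2 and 3. In these libraries the markers of pyramidal neurons were higher in AV mice as well, with 0 of 8 called by limma, 4 at an unadjusted p under 0.05 and a median difference of 1.23. Their summed level was 2.99 and 3.54 in AV mice and 0.94, 1.47 and 2.29 in AP mice. Of 18 markers of any neuron 6 were listed, 0 were called by limma, 3 had an unadjusted p under 0.05, and the summed level was 2.53 and 3.03 in AV mice and 0.92, 1.19 and 1.38 in AP mice. The part of these markers, and of the lower myelin markers, in the postsynaptic values was not tested.

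Dlg4 (chr11:70016942-70047522, + strand), which encodes the scaffold PSD-95, was at 846 and 1077 in AV mice beside 116 to 162 in the BA mice of that table, and at 139.7, 306 and 367 in AP mice beside 159.9 to 207, a log2 difference of 2.29 ± 0.45 (SE). Homer2 (chr7:81600481-81707527, - strand), which links metabotropic glutamate receptors to calcium stores, had values of 297 and 488 in AV mice (BA mice 46.4 to 62.1) and of 74.8, 113 and 88.5 in AP mice (BA mice 53.2 to 68.6), which differed by 2.27 ± 0.33. Iqsec2, an exchange factor for Arf6 at excitatory synapses, reached 257 and 331 in AV mice against 48.9 to 70.3 in BA mice, and 80.5, 121 and 68.0 in AP mice against 55.9 to 80.9, with a difference of 1.96 ± 0.33. Both AV mice were above all other mice in the 3 genes of both tables. Dlgap4, a partner of PSD-95, was at 563 and 770.3 in AV mice beside 136 to 201 in the BA mice of that table, and at 264, 284 and 302 in AP mice beside 173 to 233, a log2 difference of 1.47 ± 0.26 (SE). Dlg2, which encodes PSD-93, had values of 2350.1 and 2008 in AV mice (BA mice 675 to 865) and of 1005, 800.3 and 1154 in AP mice (BA mice 785 to 1093), which differed by 1.42 ± 0.27. Among members that were not called, Shank2, a scaffold that joins these complexes, reached 342 and 563 in AV mice against 27.2 to 43.1 in BA mice, and 27.0, 142 and 243 in AP mice against 33.8 to 54.2, with a difference of 2.40 ± 0.87. Its AP replicate 1 was below all BA mice and AP replicates 2 and 3 above them, and its adjusted p with limma was 0.14. Map2, the dendritic microtubule protein and the general neuron marker with the smallest p, was at 4703 and 6319 in AV mice beside 819 to 1154 in the BA mice of that table, and at 1126, 1913 and 2408 in AP mice beside 995 to 1266, a log2 difference of 1.91 ± 0.38 (SE). With an adjusted p of 0.0505 in limma Map2 fell just outside the threshold.

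The called genes of the sodium, calcium and potassium channel lists and of calcium signalling were higher in AV mice. Of 31 voltage-gated sodium and calcium channel genes 17 were listed in both tables, 3 were called higher, beside 1.08% of all genes, and 0 lower. At an unadjusted p under 0.05 were 10, all higher, beside 12.1% of all genes, and the median difference was 1.17. Scn1a, the sodium channel Nav1.1, had values of 89.5 and 102 in AV mice (BA mice 22.1 to 37.0) and of 23.6, 29.1 and 36.6 in AP mice (BA mice 24.1 to 43.0), which differed by 1.88 ± 0.28. Cacng4, an auxiliary subunit of AMPA receptors that is also listed as a precursor marker, reached 240.1 and 295 in AV mice against 66.0 to 112 in BA mice, and 98.6, 111 and 103 in AP mice against 69.4 to 138, with a difference of 1.57 ± 0.25. Cacna1a, the pore of P/Q-type calcium channels that trigger transmitter release, was at 348 and 391 in AV mice beside 122.9 to 156 in the BA mice of that table, and at 162, 132 and 174 in AP mice beside 143 to 187, a log2 difference of 1.48 ± 0.26 (SE). In all 3 the AV mice stood above every BA mouse and the AP mice within or beside the BA range. Of 21 listed genes of calcium and calmodulin signalling Itpr1 was called. An unadjusted p under 0.05 was reached by 10, all higher, beside 12.1% of all genes, and the median difference was 0.89. Of 16 voltage-gated potassium channel genes Kcnc1 was called. At an unadjusted p under 0.05, 6 were higher and 1 lower, beside 12.1% and 15.5% of all genes, with a median of 0.72.

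Glutamate and GABA receptors gave fewer calls. Of 9 AMPA and kainate receptor genes 1 was called, Grik5, a kainate receptor subunit, which had values of 612 and 758 in AV mice (BA mice 193 to 288) and of 249, 295 and 307 in AP mice (BA mice 243 to 343), which differed by 1.54 ± 0.26. Of 4 metabotropic glutamate receptors Grm4 was called. From single calls in lists this short, beside 1.08% of all genes called higher, nothing is read. None of 4 NMDA receptor genes or 7 GABA receptor genes was called by limma. In each group 1 gene was higher at an unadjusted p under 0.05, beside 12.1% of all genes. Their medians were 1.03 and 0.78. The members with the smallest p were Grin3a, which differed by 1.49 ± 0.42 (SE, adjusted p = 0.0841 with limma), and Gabra4, which differed by 1.30 ± 0.45 (adjusted p = 0.131 with limma). Of 22 synaptic vesicle and SNARE genes 0 were called by limma. At an unadjusted p under 0.05, 6 were higher and 2 lower, beside 12.1% and 15.5% of all genes, and the median was 0.69.

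The 12 largest differences among the genes called higher, with AV or AP mice averaging 50 or more and BA means that differed by less than 0.5 between the tables, ran from 2.37 to 3.16. Mgat5b (chr11:116918863-116986948, + strand), a brain glycosyltransferase, reached 125 and 256 in AV mice against 8.79 to 19.0 in BA mice, and 17.9, 30.3 and 26.9 in AP mice against 9.36 to 29.7, with a difference of 3.16 ± 0.39. Itpr1 (chr6:108213096-108551109, + strand), the receptor through which inositol trisphosphate releases calcium from the endoplasmic reticulum, was at 1396 and 1211 in AV mice beside 174 to 271 in the BA mice of that table, and at 220.3, 307 and 310.2 in AP mice beside 222 to 338, a log2 difference of 2.52 ± 0.28 (SE). Kcnc1 (chr7:46396497-46438704, + strand), the potassium channel Kv3.1 of fast-firing neurons, had values of 101 and 162 in AV mice (BA mice 17.1 to 19.9) and of 17.9, 41.7 and 20.4 in AP mice (BA mice 20.4 to 28.6), which differed by 2.64 ± 0.43. The AV mice were above every AP and BA mouse in these genes, and AP mice overlapped the BA mice. Grm4, a presynaptic glutamate receptor that lowers transmitter release, reached 50.3 and 55.2 in AV mice against 7.96 to 8.8 in BA mice, and 7.68, 9.79 and 14.98 in AP mice against 8.39 to 10.2, with a difference of 2.37 ± 0.32. Kcnmb4, a subunit that slows calcium-activated potassium channels, was at 68.9 and 57.5 in AV mice beside 7.29 to 7.93 in the BA mice of that table, and at 8.82, 14.0 and 17.1 in AP mice beside 8.13 to 11.6, a log2 difference of 2.44 ± 0.33 (SE). Rap1gap2, which switches off the small GTPase Rap1, had values of 265 and 482 in AV mice (BA mice 18.7 to 36.0) and of 21.3, 82.0 and 60.4 in AP mice (BA mice 22.2 to 37.6), which differed by 3.09 ± 0.59. Grm4 and Kcnmb4 lay between 7.29 and 17.1 in BA and AP mice, a level of few reads, so the size of their difference is less sure than that of Itpr1. The other genes of the 12 were Acsl5 (2.81, an acyl-CoA synthetase), Vxn (2.63), Col1a2 (2.62, a chain of type I collagen), Jpt1 (2.49), St8sia1 (2.44, the synthase of ganglioside GD3) and Cdo1 (2.37, cysteine dioxygenase). Exons of Acsl5, Vxn, Itpr1, St8sia1 and Kcnmb4 overlap those of genes on the opposite strand, from which a stranded count would keep them apart only if the strand was used.

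Within the same limits, the 12 largest differences among the genes called lower ran from -3.54 to -2.85. Sgk2 (chr2:162987330-163014127, + strand), a serum- and glucocorticoid-regulated kinase, reached 4.39 and 29.6 in AV mice against 163 to 213 in BA mice, and 174, 171 and 179 in AP mice against 196 to 246, with a difference of -3.54 ± 0.67. Tmem39a (chr16:38558698-38592162, + strand), a membrane protein of the endoplasmic reticulum, was at 9.46 and 19.4 in AV mice beside 194 to 220.5 in the BA mice of that table, and at 245, 125 and 198 in AP mice beside 231 to 256, a log2 difference of -3.46 ± 0.42 (SE). Mbnl3 (chrX:51117269-51206532, - strand), a splicing regulator of the muscleblind family, had values of 4.54 and 8.53 in AV mice (BA mice 57.8 to 96.1) and of 76.2, 43.8 and 72.3 in AP mice (BA mice 63.3 to 80.2), which differed by -3.21 ± 0.37. In these genes AP and BA mice stood at 40 or more and the AV mice below 30, with AV replicate 1 the lower. Il17rb, a receptor subunit for the cytokine IL-25, reached 4.53 and 14.5 in AV mice against 54.2 to 96.2 in BA mice, and 90.7, 66.5 and 113 in AP mice against 65.9 to 114, with a difference of -3.02 ± 0.48. Pskh1, a serine kinase, was at 5.92 and 9.82 in AV mice beside 68.2 to 107 in the BA mice of that table, and at 81.6, 67.2 and 101 in AP mice beside 81.7 to 128, a log2 difference of -3.02 ± 0.32 (SE). Omp, the olfactory marker protein, had values of 6.22 and 6.16 in AV mice (BA mice 34.9 to 50.5) and of 67.9, 58.0 and 50.7 in AP mice (BA mice 39.3 to 59.6), which differed by -2.85 ± 0.25. At least 1 AV mouse stood under 10 in each of these 6 genes, so the fitted size depends on the added 1. The other genes of the 12 were Olfr1191-ps1 (-3.23), Mtfmt (-3.17, a mitochondrial formyltransferase), Atp8b1 (-3.07, a phospholipid flippase), Smtnl2 (-2.99), Amy1 (-2.90, salivary amylase) and Olfr607 (-2.87, an olfactory receptor). Exons of Tmem39a and Il17rb overlap those of genes on the opposite strand, so the limit given for the higher genes holds for them too. Exons of Amy1 overlap those of Rnpc3 on the same strand, and its reads and those of related amylase genes may have been split, so its value is uncertain.

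**Figure D3:**
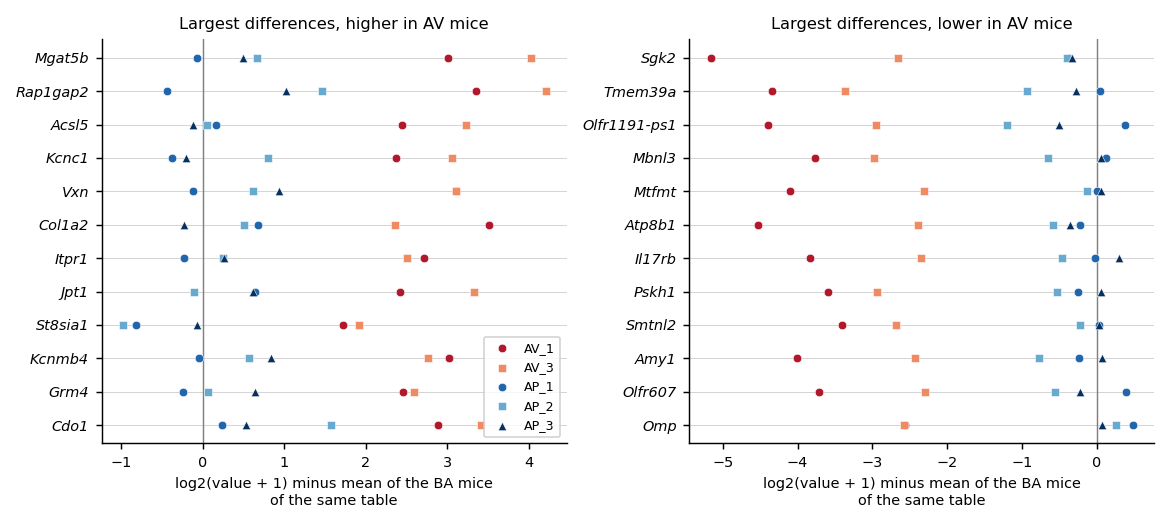
Log2(value + 1) of each AV and AP mouse relative to the mean of the BA mice of its table (0) is plotted for the 12 called genes with the largest difference in each direction among those with a mean of at least 50 and BA means within 0.5 of each other. The AV mice lie right of all AP mice in every row on the left and left of all AP mice in every row on the right, and most AP mice lie within 1 of the BA mean.

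In 12 called genes AV and AP mice moved to opposite sides of the BA mice, and these were picked out after their values were seen. AV mice lay below and AP mice above all BA mice in 7 of them, as in 0.265% of all genes, and AV mice above and AP mice below in 5, as in 0.499% of all genes. Cxcl12 (chr6:117168535-117181367, + strand), the chemokine that guides cells through its receptor Cxcr4, reached 58.0 and 65.3 in AV mice against 111 to 120.0 in BA mice, and 185, 249 and 180.4 in AP mice against 126 to 151, with a difference of -1.44 ± 0.27. Ctps, the enzyme that makes cytidine triphosphate, was at 102 and 97.5 in AV mice beside 211 to 271 in the BA mice of that table, and at 358, 367 and 422 in AP mice beside 265 to 315, a log2 difference of -1.65 ± 0.24 (SE). Tpra1, a membrane protein first described in adipocytes, had values of 12.96 and 24.8 in AV mice (BA mice 41.9 to 53.0) and of 83.9, 69.3 and 119 in AP mice (BA mice 43.0 to 67.01), which differed by -2.06 ± 0.38. In each of the 3 the AP mice were above the BA mice of their table and the AV mice below theirs. Jph4, a junctophilin that ties the neuronal endoplasmic reticulum to the plasma membrane, reached 928 and 967 in AV mice against 450.3 to 500.0 in BA mice, and 472, 409 and 519 in AP mice against 522 to 612, with a difference of 1.30 ± 0.25. Castor2, a regulator of the mTORC1 pathway, was at 316 and 448 in AV mice beside 139 to 175 in the BA mice of that table, and at 144, 146 and 145 in AP mice beside 158 to 215, a log2 difference of 1.60 ± 0.26 (SE). Aldh1a1, which makes retinoic acid, had values of 171 and 178 in AV mice (BA mice 82.9 to 96.9) and of 53.2, 89.1 and 58.2 in AP mice (BA mice 91.5 to 113), which differed by 1.58 ± 0.30. The last 3 had the reverse arrangement, with the AP mice below and the AV mice above. Kctd17 (1.40) and Azin2 were of this kind too, and all 3 AP mice were at no more than 3 reads in Azin2, so no size is given for it. Slc22a21, 4930474N05Rik, Gm4017 and Gm8850 were of the first kind, with both AV mice below 5.68 in a table whose reads are not known. In 4930474N05Rik and Gm4017 the BA means were higher in the BA vs AV table, by 0.57 and 0.23, against a median gap of -0.23 over all genes. The place of the AP mice relative to the BA mice thus depends on the table in these 2 genes. Slc22a21, a carnitine transporter, stood at 2.45 and 4.71 in AV mice, beside 14.3 to 18.0 in BA mice, and at 43.0, 45.0 and 50.6 in AP mice, beside 18.5 to 23.7.

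**Figure D4:**
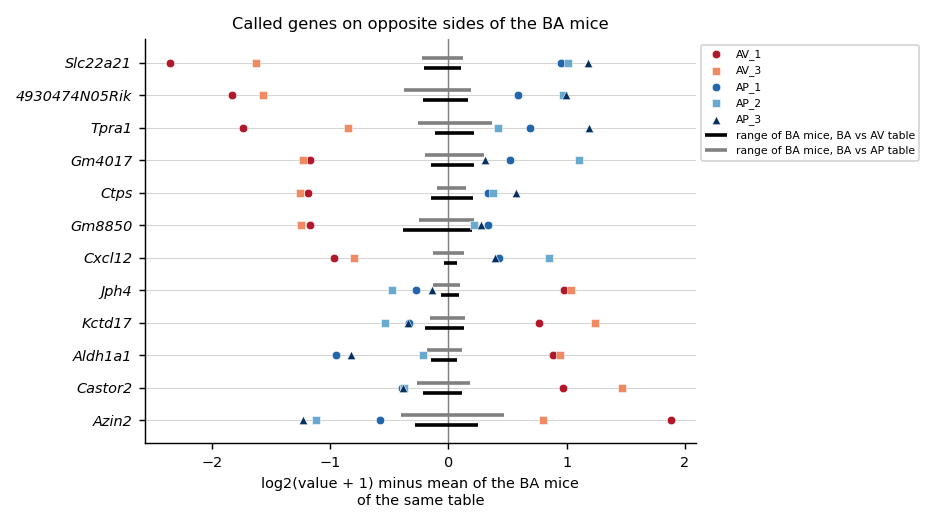
Log2(value + 1) of each AV and AP mouse relative to the mean of the BA mice of its table (0) is plotted for the 12 called genes whose groups lie on opposite sides of the BA mice, whose range in each table is drawn as a bar. In the upper 7 rows AV mice are left and AP mice right of the bar of their own table, and in the lower 5 rows the order is reversed.

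The endocannabinoid system was the subject of the study and gave no call here. Of 27 enzymes, receptors and partners 15 were listed in both tables, and Cnr1, the main cannabinoid receptor of the brain, was not among them. None of the 15 was called by limma, beside 3.22% of all genes, and from a list this short nothing is read. At an unadjusted p under 0.05, 3 were higher in AV mice and 1 lower, beside 12.1% and 15.5% of all genes. The median difference was 0.33. Dagla, the lipase that makes 2-arachidonoylglycerol in dendrites, reached 202 and 232 in AV mice against 38.0 to 70.9 in BA mice, and 70.2, 100.5 and 126 in AP mice against 40.4 to 81.7, with a difference of 1.37 ± 0.32. Mgll, the lipase that degrades it, was at 390.4 and 589.7 in AV mice beside 147 to 171 in the BA mice of that table, and at 160.0, 366 and 187 in AP mice beside 183 to 194, a log2 difference of 1.38 ± 0.42 (SE). Napepld, which releases anandamide from its precursor, had values of 91.6 and 58.2 in AV mice (BA mice 92.1 to 149) and of 134, 164 and 156 in AP mice (BA mice 115 to 169), which differed by -0.76 ± 0.29. Their adjusted p values with limma were 0.0611, 0.100 and 0.158. In Dagla both AV mice were above all AP and BA mice, in Mgll AP replicate 2 stood near the AV mice, and in Napepld AV replicates 1 and 3 were the lowest mice. Faah, which degrades anandamide, and Daglb, a second lipase for 2-arachidonoylglycerol, differed by -0.10 ± 0.34 and -0.08 ± 0.30, and both changed sign when 1 mouse was left out. The kinases Mapk3 and Mapk10 differed by 0.42 ± 0.28 and 1.12 ± 0.43, and limma called neither (adjusted p = 0.364 and 0.157).

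At most 1 gene was called in each immune list and among the TRP channels, beside 3.22% of all genes, and from so few calls nothing is read about these lists. Of 27 listed genes of the B-cell receptor pathway 1 was called, Rasgrp3, an exchange factor for Ras, which reached 93.0 and 172 in AV mice against 590.2 to 674 in BA mice, and 689.9, 523 and 569.7 in AP mice against 686 to 788, with a difference of -1.98 ± 0.34. The median of that list was -0.21. Of 6 listed chemokine genes Cxcl12 was called, and the median was -0.50. Of 29 listed genes of interleukin and interferon receptors and signalling 1 was called, Socs7, a suppressor of cytokine signalling, which was at 324 and 309.9 in AV mice beside 113 to 136 in the BA mice of that table, and at 154, 139 and 152 in AP mice beside 132 to 154, a log2 difference of 1.29 ± 0.23 (SE). In this list 23 of 29 genes were lower in AV mice, 8 of them at an unadjusted p under 0.05 beside 15.5% of all genes, and the median was -0.49. Il17rb, the interleukin receptor subunit called lower and described above (-3.02), is not a member of this list. Of 7 listed TRP channels 1 was called, Trpv3, a temperature-gated channel, which differed by -2.02 ± 0.35 at low values of 5.51 and 6.21 in AV mice. Of 9 listed MHC class I and antigen processing genes 0 were called by limma, with 1 at an unadjusted p under 0.05. Of 24 microglia markers 22 were listed for the AP mice but only 7 for the AV mice, and these 7 stood in both tables. Markers missing from 1 table could not be compared, so nothing is read about them. The 7 had 0 calls in limma, 0 genes at an unadjusted p under 0.05 and a median of -0.27, or 0.03 without AV replicate 1. Their summed level was above that of the BA mice in both groups, 1.46 and 2.01 in AV mice and 2.13, 1.60 and 2.44 in AP mice, and its part in the immune values was not tested.

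Genes of protein synthesis and energy supply leaned to higher values in AV mice without a call. Of 68 listed cytosolic ribosomal protein genes 65 were higher in AV than in AP mice and 37 had an unadjusted p under 0.05, beside 12.1% of all genes. Their median difference was 0.90, and their summed level relative to the BA mice was 2.28 and 2.63 in AV mice and 1.01, 1.72 and 1.80 in AP mice. Of 32 complex I genes 30 were higher, with a median of 0.61, of 24 cytochrome c oxidase and ATP synthase genes 23, with a median of 0.82, and of 19 glycolysis genes 18, with a median of 0.68. None of these 143 genes was called by limma, while 65 had an unadjusted p under 0.05 and were higher. Rpl30, a protein of the large ribosomal subunit with the smallest p of its list, had values of 503 and 554 in AV mice (BA mice 121 to 214) and of 237, 288 and 369 in AP mice (BA mice 172 to 239), which differed by 1.2 ± 0.28. Ribosomal protein genes have many near-identical pseudogene copies, so their values are uncertain where reads were split. In the medians of all 4 lists AP replicates 2 and 3 lay between AP replicate 1, which was near the BA mice, and the AV mice.

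No marker of astrocytes, of endothelial and mural cells or of inhibitory neurons was called by limma, beside 3.22% of all genes. Of 18 listed astrocyte markers 16 were higher in AV mice, 0 were called by limma, 0 had an unadjusted p under 0.05, and the median was 0.59. Their summed level relative to the BA mice was 2.02 and 4.0 in AV mice and 0.69, 3.10 and 1.72 in AP mice, so the groups overlapped. Of 21 endothelial and mural markers 14 were listed for the AP mice and 8 for the AV mice, and only the 6 listed for both could be compared. Of these 6, 0 were called by limma, and the median was -0.96. At an unadjusted p under 0.05, 4 were lower in AV mice and 1 higher, beside 15.5% and 12.1% of all genes. Kdr, the main receptor for vascular endothelial growth factor, differed by -2.58 ± 0.57 with an adjusted p of 0.0566 in limma. Of 22 inhibitory neuron markers 4 were listed with 0 calls in limma and 0 genes at an unadjusted p under 0.05, and Gad1, Slc32a1, Sst, Pvalb and Vip, which define these neurons, were listed in neither table. No marker of red and other blood cells was listed in both tables. The part of these markers in the called genes was not tested.

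**Figure D5:**
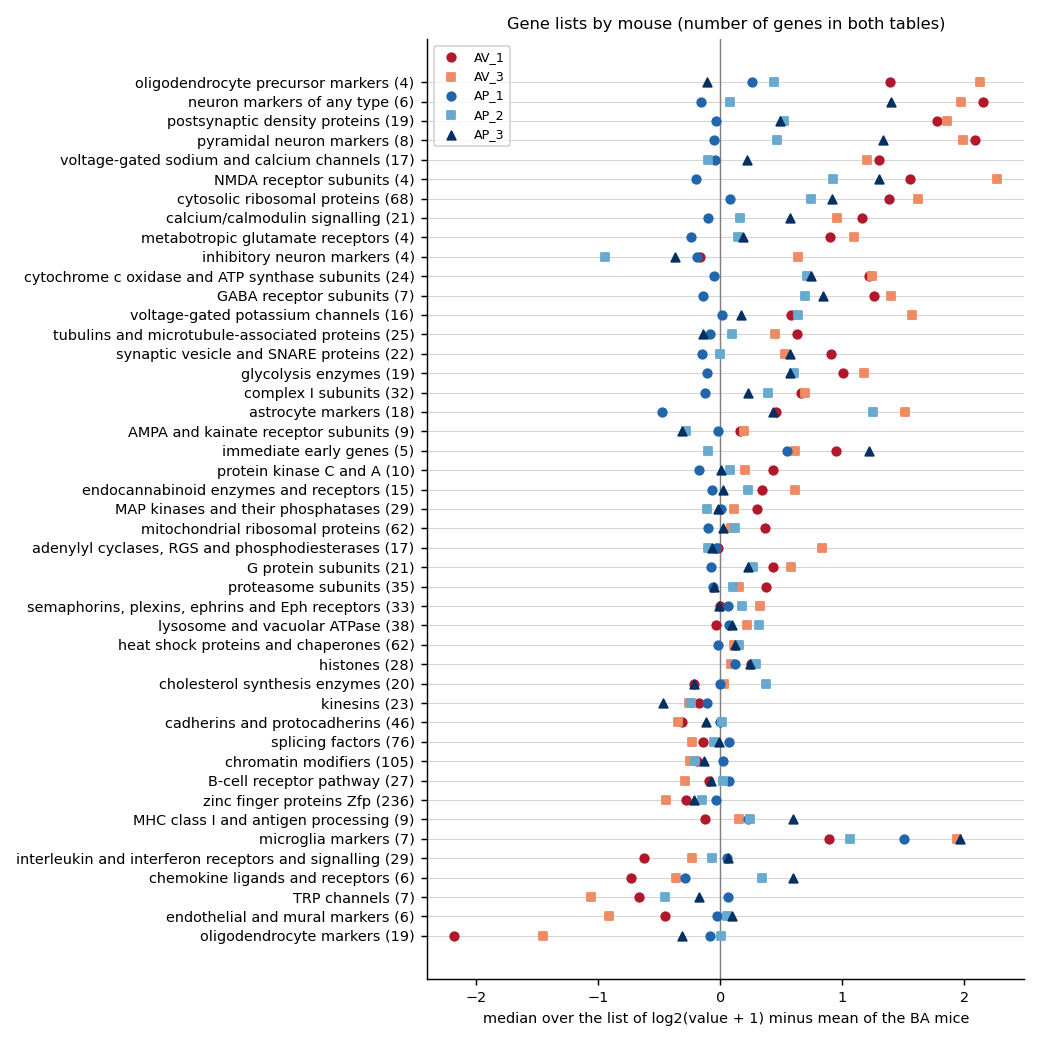
The median over each gene list of log2(value + 1) relative to the mean of the BA mice of the same table (0) is plotted for each AV and AP mouse, with lists of 4 or more genes ordered by the median difference between AV and AP mice. The oligodendrocyte markers lie at the bottom with AV mice at -2.18 and -1.46, and the lists of oligodendrocyte precursors, of neurons and of the postsynaptic density lie at the top.

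Among gene families for transcription and structure, calls were few and of both directions, beside 1.08% of all genes called higher and 2.13% called lower. Of 236 zinc finger genes named Zfp 3 were called, all lower in AV mice and a smaller share than among all genes (Zfp366, Zfp157 and Zfp488), and 154 were lower at any p, with a median of -0.22. Of 33 semaphorin, plexin, ephrin and related guidance genes 3 were called, all lower. Sema6a, a transmembrane semaphorin, differed by -2.05 ± 0.34, Unc5c, a netrin receptor, by -1.92 ± 0.36, and Sema4d by -1.27 ± 0.25. Of 25 tubulin and microtubule-associated genes 2 were called higher, Dcx, a protein of young neurons, by 1.77 ± 0.28 and Tuba1b by 1.39, and 1 lower, Map7, by -1.67 ± 0.28. Of 76 splicing factors Rbfox2, a regulator of neuronal exons, was called higher (2.01 ± 0.29) and Mbnl3 lower. Single calls were Kat2b, a histone acetyltransferase (-2.12 ± 0.40), Pde8a, a cyclic AMP phosphodiesterase (-1.61 ± 0.30), Kif7, a kinesin of cilia (2.57 and 4.95 in AV mice beside 16.9 to 34.4 in AP mice), Pcdhgb4, a clustered protocadherin (-1.53), Psme3, an activator of the proteasome (1.43), and Dnajc27 (1.74). The exons of Pcdhgb4 are shared with many other genes of its cluster, so the gene behind its value is uncertain. Of 28 histone, 20 cholesterol synthesis, 38 lysosomal and 62 mitochondrial ribosomal genes 0 were called by limma, beside 3.22% of all genes. At an unadjusted p under 0.05 were 3, 0, 3 and 7 of them, beside 27.6% of all genes.

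In the lists with no call, the member with the smallest p stayed outside the threshold in limma each time. Among signalling genes these were Gng7, a G protein gamma subunit (1.24 ± 0.26, SE, adjusted p = 0.0538), Prkcb, a protein kinase C (1.62 ± 0.36, adjusted p = 0.0569), Map3k5, a stress kinase (1.44 ± 0.37, adjusted p = 0.0739), and Kcnj2, an inward rectifier potassium channel (-1.40 ± 0.44, adjusted p = 0.106). Prkcb reached 1089.5 and 1069 in AV mice against 222 to 313 in BA mice, and 314, 358 and 640.0 in AP mice against 256 to 389, with a difference of 1.62 ± 0.36. Among markers they were Cux2 of upper-layer neurons (0.93), Aldoc of astrocytes (1.35), Sall1 of microglia (-0.62), Adarb2 of inhibitory neurons (1.04) and Foxj1 of ciliated cells (-0.96), with adjusted p values in limma of 0.0762, 0.264, 0.221, 0.205 and 0.12. Klf6, an immediate early gene, differed by -0.75 (adjusted p = 0.273 with limma) and H2-Q4, an MHC class I gene, by -1.76 (adjusted p = 0.0657 with limma). Among genes of metabolism they included mt-Nd6 (1.23), Ndufv2 (0.99), Atp5h (1.17), Slc2a1, a glucose transporter (-0.82), Mrpl27 (1.36), Lipa, the lysosomal acid lipase (-2.08), and Hist2h2be (1.48), with adjusted p values in limma between 0.0657 and 0.283.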

How the data were processed

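RNA-seq was performed on sorted Thy1-YFP cells of the amygdala of 9 mice, 3 of each phenotype. The normalized signal of the 2 tables was deposited by the authors. Per the study's methods TMM normalization, removal of genes with low counts and ARSyN batch correction were used, and whether ARSyN shaped both tables is not stated. The submitters' processing notes name bcl2fastq 2.20, Salmon 1.2 and GRCm38.p6. For 241 of the 9417 shared identifiers the version differs between the tables, so they rest on different annotation releases. In the BA vs AP table each mouse has a lowest value of 2, and of the values just above it 79.4% to 89.7% fall on multiples of 1 read. Such steps were not searched for in the BA vs AV table, where the lowest value differs from mouse to mouse. The level of 3 reads belongs to the BA vs AP table and covers counting error only.

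Here log2(value + 1) was set relative to the mean of the BA mice of each table, and AV (n = 2) and AP mice (n = 3) were compared gene by gene with limma 3.58.1 in R 4.3.3, without covariates, over all 9417 shared genes, with Benjamini-Hochberg adjustment and a call at 0.05. The study used NOISeqBIO, which was not run here. Symbols and positions are from GENCODE M21, promoters from RefSeq. Named genes are the 12 with the largest difference in each direction among called genes with a mean of at least 50, groups that do not overlap and BA means that differ by less than 0.5 between tables, the called member of each of 49 lists with the largest difference in each direction (or that with the smallest p), and genes of the study's endocannabinoid and MAP kinase themes. A few genes that the rule names are not reported here. The other genes named were chosen after their values were seen. Members and lists were chosen with earlier results of these data known. The scripts were tested on simulated data. Tables were handled in Python 3.11.15 with numpy 2.4.6 and pandas 2.3.3, and figures were drawn with matplotlib 3.10.9.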

Additional observations from a re-analysis of the deposited data

Results flagged for a closer look

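In 303 genes the change from the BA mice differed between AV and AP mice in limma, 102 higher and 201 lower in AV mice, and they were picked out because the difference between the groups was itself the quantity tested. No group had 4 or more mice, so single mice were not tested for standing apart from their group.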

How the results depend on the processing

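The 44 called genes that the naming rule gave kept their direction under every alternative in which they could be fitted. Their selection from the same mice made this likely in advance. The number of genes called depended strongly on the settings. It was 303 (102 higher and 201 lower in AV mice) as reported. It rose to 869 without the BA mice as a link (752 lower), to 1591 with all 11 columns in 1 fit and the mouse as a random block (567 higher and 1024 lower), to 800 with a pseudocount of 10 (304 and 496) and to 783 over genes with a mean of at least 50 in each table (277 and 506). It fell to 0 when each mouse was centred on its median over all genes (2568 genes at an unadjusted p under 0.05), to 2 (0 higher and 2 lower) with a prior in limma that followed mean expression and was robust, and to 0 at an adjusted p under 0.01, and 66 genes were called higher over genes whose BA gap was under 0.25. With the lowest value of each mouse subtracted, an alternative chosen after seeing the data, 0 genes were called (2547 at an unadjusted p under 0.05), and with the BA gap within 0.25 of its median, also added later, 326. With 1 mouse left out, between 0 and 470 genes were called, between 0 and 161 higher and between 0 and 383 lower. Calls fell to 0 without AV replicate 1 or without AP replicate 1, 2 or 3 (1856, 1832, 2242 and 2360 genes at an unadjusted p under 0.05) and were 440 without AV replicate 3, when the lone AV mouse was assumed to vary like the AP mice. With 1 mouse left out Faah lay between -0.41 and 0.22 (0.22 without AV replicate 3 and 0.11 without AP replicate 1) and Daglb between -0.26 and 0.09 (0.053 without AV replicate 1 and 0.092 without AP replicate 1). Of 1569 values of named genes under the alternatives, 1124 kept their direction and their side of the threshold, 385 no longer passed it, 56 newly passed it and these 4 changed sign. The cause of these shifts was not tested.

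With the replicate number as a block 0 genes were called in limma, 0 higher and 0 lower, and 2161 had an unadjusted p under 0.05. AV and AP mice share only the numbers 1 and 3, the deviations of same-numbered mice correlated at 0.0484 and -0.0395, and nothing in the labels pairs them.

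The AV group held 2 mice and the number of reads behind the values of its table was not estimated, so its low values are the least certain.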

Other observations

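Olfactory and vomeronasal receptor genes, a family collected after its values were seen, were lower in AV mice as a group. Of 107 genes named Olfr or Vmn in both deposited files, 101 were lower in AV than in AP mice at any p, 17 were called lower (15.9%, beside 2.13% of all genes) and 0 were called higher, with 2595 of all genes at an unadjusted p under 0.05 in limma. The median difference was -1.47, of which the AV mice stood at -1.71 and the AP mice at -0.15 relative to the BA mice. Many of these receptors are near-identical copies, so the gene behind a value is uncertain.

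The AP mouse nearest to the AV mice was AP replicate 1 in 39 of the 303 called genes, AP replicate 2 in 142 and AP replicate 3 in 122, beside 23.1%, 41.6% and 35.3% of all genes. Further genes of dendrites and synapses were among the 102 higher genes, among them Ppp1r9b, the spine protein spinophilin, Sipa1l1, a spine GTPase-activating protein, Lrrtm3, an adhesion molecule of excitatory synapses, and Asic1, an acid-sensing channel, and they were picked out after their values were seen.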
